A study of Mus musculus with 12 samples.

Results

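Car1, Car2 and Car4, 3 members of the carbonic anhydrase family, were followed through single-cell transcriptomes of mouse small intestinal epithelium. They were found by symbol among the 20090 genes of the deposited diet table, and all 3 had values there. They were chosen with their levels and co-occurrence in these data known, so these values are given as a description. The cells were epithelial cells of adult Lgr5DTR-GFP mice, sorted as CD45-negative and EpCAM-positive. That strain carries a diphtheria toxin receptor and GFP reporter of the stem cell gene Lgr5. Per the labels, intestines were divided into 30 equal segments whose cells were marked with MULTI-seq barcodes, and 8 of 12 samples form the diet group analysed here, with no diet named. Samples of progenitors (2) and of total epithelium (2), which the labels describe as sorted for CD44 and the Lgr5 reporter as well, were not analysed here.

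Carbonic anhydrases speed the interconversion of carbon dioxide and bicarbonate, and in the gut they supply bicarbonate for secretion and protons for sodium uptake. Car4 is anchored to the outer face of the apical membrane. Car1 and Car2 are enzymes of the cytosol. Car1 is abundant in red blood cells and in the epithelium of the large intestine, and Car2 is found in many secreting epithelia, including that of the stomach.

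Car1 and Car2 lie close together on chromosome 3 of the mouse build GRCm38 (mm10), Car1 at 14766216 to 14808368 on the minus strand and Car2 at 14886273 to 14900770 on the plus strand. Car4 is on chromosome 11 at 84957786 to 84966044, plus strand. Of the 3 members, 1 matched the RefSeq promoter table (build GRCm38.p6). The Car4 window, chr11:84957504-84957803 on the plus strand, is shown because Car4 is the member that the absorptive lineage expressed most. It runs 250 bases before to 50 bases after the RefSeq start, and capitals mark a TATAAA match:

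Car4: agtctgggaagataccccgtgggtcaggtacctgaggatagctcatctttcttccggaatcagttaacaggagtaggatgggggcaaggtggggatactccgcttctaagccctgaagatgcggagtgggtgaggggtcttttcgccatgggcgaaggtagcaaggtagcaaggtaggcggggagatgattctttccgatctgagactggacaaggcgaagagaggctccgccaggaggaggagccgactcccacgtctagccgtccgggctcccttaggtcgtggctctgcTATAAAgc

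The window had a GC content of 57.3%, against a median of 52.7% over 32817 promoters. Both strands were searched for TATAAA (the letters of a TATA box), the CDX core TTTAT, the GATA core AGATAA and the HNF4 element CAAAGTCCA. TATAAA began at base 293 of the 300, counted from the 5′ end, which is after the RefSeq start and not upstream of it, and 13.6% of all promoters of this length held that motif. TTTAT was found on the reverse strand at base 294, overlapping TATAAA, and 40.0% of promoters held it. AGATAA and CAAAGTCCA, held by 11.2% and 0.475% of promoters, were not in these letters.

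The table held 27881 cells in 8 barcode sets, of which 27834 were kept. A set is the cells whose barcodes share an ending. The endings differ from the numbers in the titles, so the table was treated as 1 pooled sample, with no test and no p-value, and the sets are given as a spread. A set held 2286 to 5320 cells, with median detected genes of 1693.5 to 2576, and 80 pairs of barcodes were shared between sets. The deposited values are whole numbers that did not behave as raw molecule counts (cell totals spanned only 2764 to 9739), so a cell's value is given without a unit and a group's level as ppm, a gene's share of the group's total over all genes, per 1000000. Whether different sets came from different animals is not given. Intervals on shares of cells are exact binomial (Clopper-Pearson) 95% intervals and cover counting error only.

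The 3 members differed in how they were spread over cells. Car4 had a value in 5257 cells (18.9%), with a highest value of 11, and 65.96 ppm over all cells. Car2 had a value in 1109 cells (3.98%), with a highest value of 41, and 18.3 ppm. Car1 had a value in only 0.798% of cells, but its highest value was 237, and it took 13.4 ppm. Across the 8 sets, Car4 spanned 44.4 to 108 ppm with a median of 64.5 ppm, and Car2 spanned 10.02 to 25.9 ppm with a median of 18.4 ppm. Car1 spanned 0.428 to 46.7 ppm with a median of 6.38 ppm, so the sets differed far more for Car1 than for the other members.

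Cells were clustered with the 3 genes left out, so that no cluster was defined by them. Stages were read from the marker list that was highest in each cluster. Clusters 8, 9, 12 and 13 (5088 cells), highest for the enterocyte or villus tip list, are called mature, clusters 6 and 7 (3534 cells), highest for the immature enterocyte list, immature, and clusters 1, 2, 4, 5 and 10 (11776 cells), highest for the stem or transit-amplifying list, crypt. By the naming rule cluster 9 was enterocyte-like, cluster 8 villus tip-like, cluster 7 immature enterocyte-like and clusters 2 and 4 progenitor-like, while clusters 1, 5, 6, 10, 12 and 13 stayed unnamed. Clusters outside these stages included cluster 15 (165 cells), which was Stomach-like and led by Tff1, Gkn2 and Gkn1, and cluster 16 (17 cells), which was led by the lymphocyte genes Gzma and Ccl5. Clusters 0 and 3, which stayed unnamed, and the Goblet-like and Tuft-like clusters 11 and 14 were also outside. Position was a score of 8 distal minus 8 proximal genes, none of them a member, cut in 3 equal parts (proximal, middle and distal) within each set and stage. The parts are ranges of a score: 17.8% of mature and 14.4% of immature cells lay within 0.1 SD of a boundary.

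Car4, the membrane enzyme, was highest in the immature clusters. Its level was 56.0 ppm in mature clusters and 260 ppm in immature clusters, against 27.8 ppm in crypt clusters. In the 8 sets, mature clusters had 42.8 to 104 ppm with a median of 51.7 ppm, and immature clusters had 207 to 308 ppm with a median of 241 ppm. The ranges did not overlap. The share of all genes without overlap is not given, here or in the comparisons below. The log2 difference, mature minus immature, was -2.20 with an SD of 0.56 over the sets, and it was negative in 8 of 8 sets. It met the rule used throughout for calling a difference, which asks for a mean of at least 10 ppm, an absolute log2 difference of at least 1 (pseudocount 1 ppm) and the same direction in all 8 sets. Of all genes considered, 17.9% were called lower in mature clusters, so a call alone does not set Car4 apart. The median gene differed by -0.36. In 2270 cells of each stage matched on detected genes, Car4 was at 80.1 ppm in mature and 266 ppm in immature clusters, a difference of -1.72. Over all cells, median detected genes were 1823 in mature and 2701.5 in immature clusters, summed goblet markers were at 3935 and 1255 ppm and summed Paneth markers at 3785 and 1240 ppm, and the part of these markers in the result was not tested.

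The share of cells with Car4 followed the same order. A value was present in 73.9% of cluster 7 (1288 cells) and 55.2% of cluster 6 (990 cells), against 35.3% of cluster 9. Tuft-like cells had Car4 in 14.2%, at a median of 1667 detected genes, Goblet-like cells in 15.1%, and Stomach-like cells in 3.64%, at 2367. Only 1 set held at least 20 Tuft-like cells, so their shares and levels show no spread between sets. Free RNA was not measured, and these shares outside the absorptive lineage differ, so they give only a rough level for it. The shares in clusters 1, 2 and 10 (4.14%, 5.27% and 7.22%), and in mature clusters 8 and 13 (3.17% and 7.95%), were below the tuft-like and Goblet-like shares, so no expression is read from them. Cluster 5 (27.1%) and cluster 4 (20.2%), led by Mcm replication genes and by histone genes, had higher shares, at medians of 2840 and 3008 detected genes. Their levels of 57.9 and 42.5 ppm did not exceed the 61.6 ppm of Goblet-like cells. Goblet-like cells also held 39553 ppm of enterocyte markers, against 1328 ppm in cluster 5 and 1254 ppm in cluster 4. They are therefore not a group free of enterocyte markers. Tuft-like cells, with 4389 ppm of these markers, had 43.0 ppm of Car4, which cluster 5 exceeded and cluster 4 did not. Whether these 2 clusters express Car4 was not settled, and no expression is read from them. Of the 340 cells with a Car4 value of 5 or more, 79.7% were in clusters 6 and 7.

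**Figure D1:**
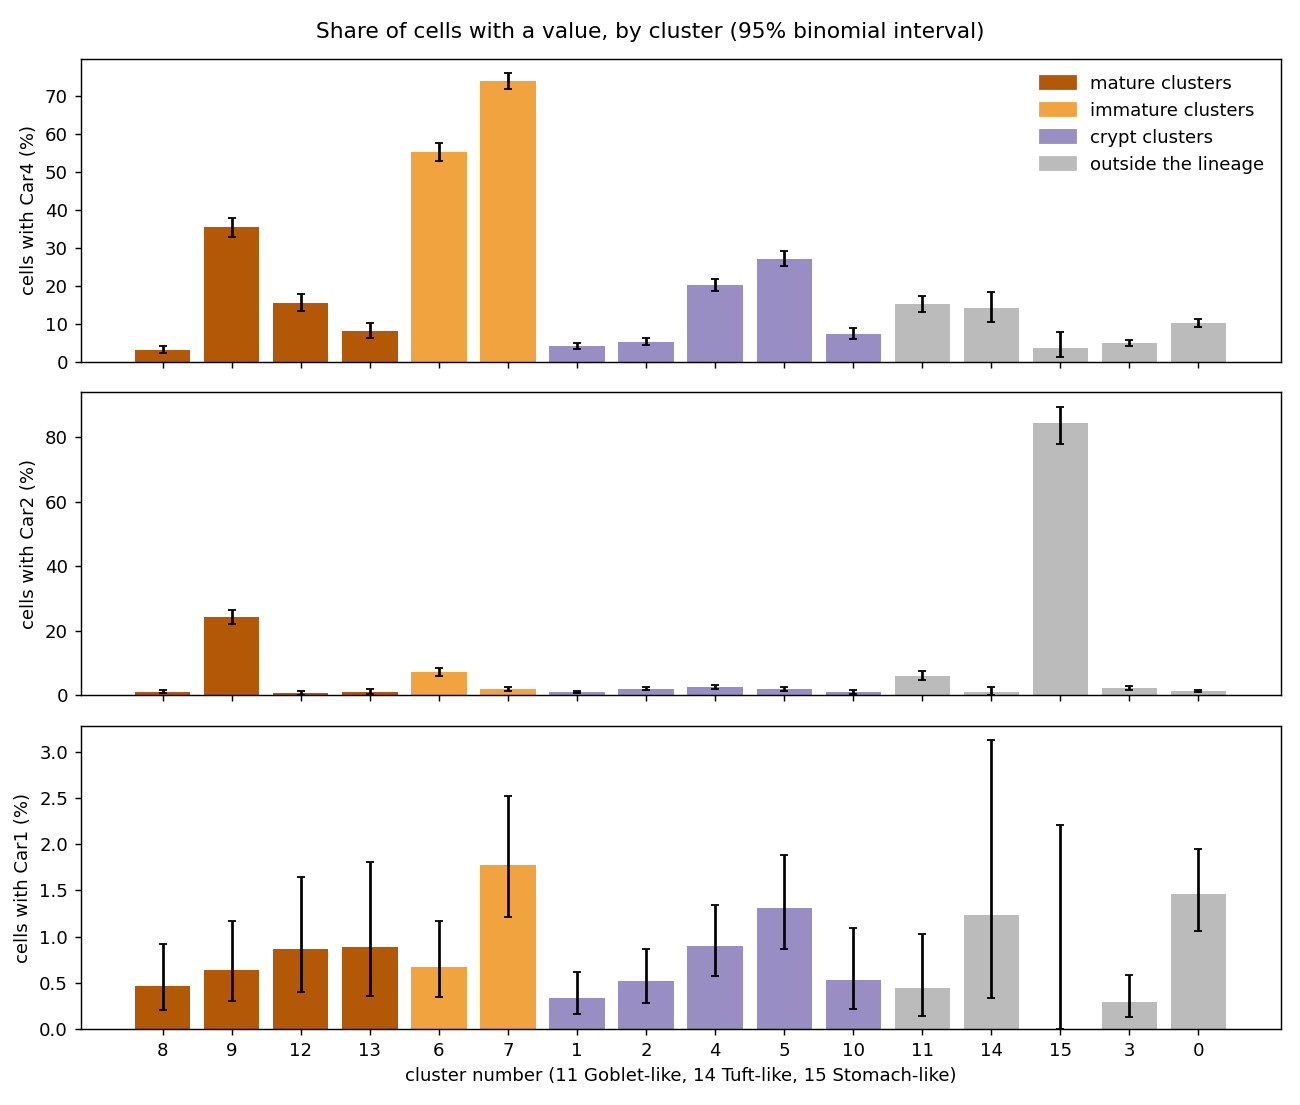
Share of cells with a value for Car4, Car2 and Car1 (y axes, percent) in 16 clusters (x axis, numbered), coloured by stage, with exact 95% binomial intervals. Car4 peaks in clusters 6 and 7 (55.2% and 73.9%), Car2 in the Stomach-like cluster 15 (84.2%) and then cluster 9 (24.2%), and no cluster exceeds 1.78% for Car1. Cluster 16, with 17 cells, is not drawn.

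A maturity score of 16 other genes, cut in 10 equal steps over the 20398 cells of these clusters, placed the Car4 peak late but not last. In the proximal part Car4 was at 64.7 ppm in step 6, 172 ppm in step 7, 185 ppm in step 8, 114 ppm in step 9 and 64.5 ppm in step 10. In the distal part it was 64.3, 159, 112, 91.9 and 51.8 ppm in the same steps. The middle regional part peaked highest, at 239 ppm in step 8. Car4 thus had a peak in all 3 regional parts, in step 7 or 8. Cut in 3 equal ranges, the score gave Car4 131 ppm in the late and 65.6 ppm in the middle range, a log2 difference of 0.99 that was positive in 6 of 8 sets and was not called (38.7% of genes were called). The middle range was mostly crypt cells, with 2790 ppm of the stem cell gene Olfm4, and cluster 1 alone gave 2659 of its 6799 cells. It was therefore not read as immature enterocytes.

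**Figure D2:**
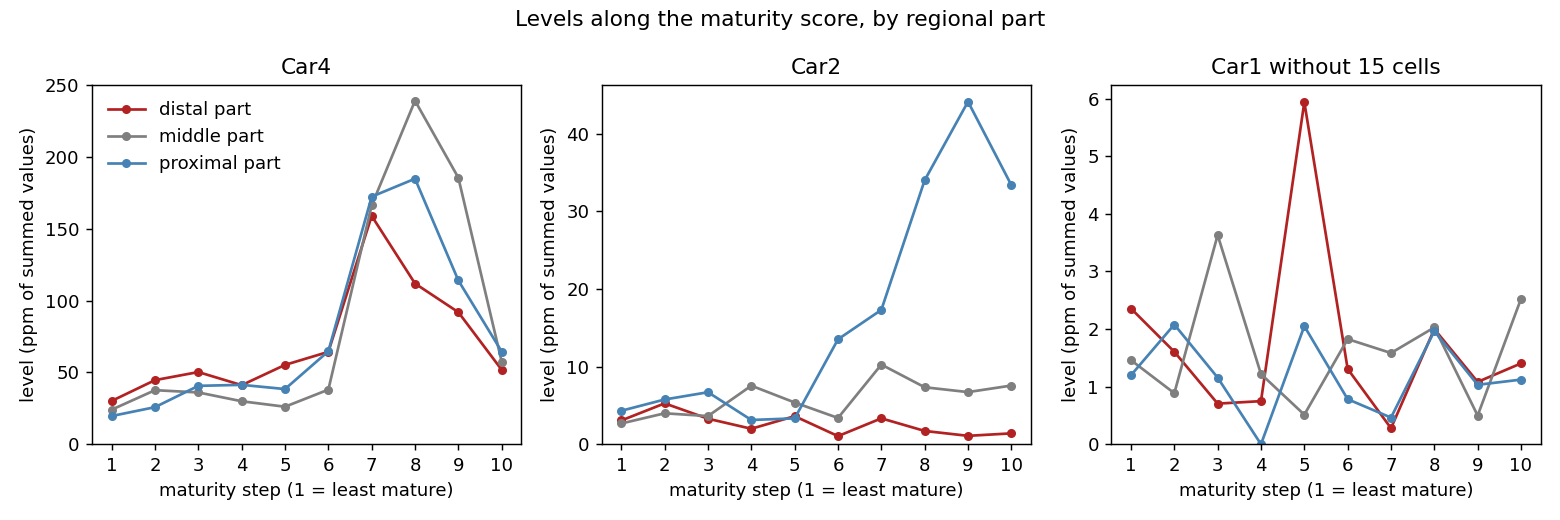
Level of Car4, Car2 and Car1 (y axes, ppm) in 10 steps of the maturity score (x axis, 1 least mature), for the distal, middle and proximal part of the regional score. Car4 peaks in step 7 or 8 in all 3 parts, Car2 climbs in the proximal part, to 44.1 ppm in step 9, and Car1, drawn without 15 cells of very high value, stays at or under 5.94 ppm.

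Along the intestine, Car4 had opposite directions in mature and immature clusters when all cells were used, but not in cells matched on detected genes. In immature clusters the distal part had 308 ppm and the proximal part 206 ppm. The sets spanned 243 to 366 ppm (median 302 ppm) in the distal and 146 to 237 ppm (median 204 ppm) in the proximal part, so the ranges did not overlap. The log2 difference of 0.58 (SD 0.27) was positive in 8 of 8 sets but under the size of 1, and it was not called. Here 2.92% of genes were called higher in the distal part. The regional score took part in this value: with the 8 proximal scoring genes alone it was 0.05. In 5 equal steps from proximal to distal, Car4 was at 211, 219, 262, 300.4 and 309 ppm, and 52.9% of cells in the first and 72.8% in the last step had a value.

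In mature clusters the distal part had 38.5 ppm of Car4 and the proximal part 86.7 ppm. The sets spanned 23.4 to 52.1 ppm (median 36.03 ppm) in the distal and 62.7 to 135 ppm (median 88.5 ppm) in the proximal part, again with no overlap. The log2 difference was -1.15 (SD 0.42), negative in 8 of 8 sets, and was called, as were 15.6% of genes in that direction. With a pseudocount of 10 ppm it was -0.99 and was not called. The parts also differed in other respects. Median detected genes were 1654 in the distal and 2797 in the proximal part, summed goblet markers were at 5261 and 1936 ppm, and summed Paneth markers at 5378 and 1667 ppm. In 662 cells of each part matched on detected genes, Car4 was at 53.8 ppm in the distal and 49.9 ppm in the proximal part, a difference of 0.11 that was positive in 4 of 8 sets, so the difference was not seen in matched cells. The part of the marker differences in the result was not tested. Over the late range of the maturity score, Car4 was at 77.3 ppm in the distal and 146 ppm in the proximal part (-0.91, negative in 7 of 8 sets, not called, where 22.7% of genes were called in either direction).

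The mature parts also drew on different clusters. Cluster 9 gave 0.532% of the distal and 81.05% of the proximal part, and cluster 12, led by the ileal bile acid transporter gene Slc10a2 among others, 48.9% and 0.824%. Within cluster 9 alone, Car4 was at 133 ppm in the distal and 62.6 ppm in the proximal part of its own cells, a log2 difference of 1.07 that was positive in 7 of 8 sets, the reverse of the direction over all mature clusters. Within cluster 12 it was at 54.04 and 64.6 ppm (difference -0.25, positive in 6 of 8 sets). Within the immature clusters the distal direction held in each cluster, at 244 ppm distal and 196 ppm proximal in cluster 6 (8 of 8 sets positive) and 318 and 270 ppm in cluster 7 (7 of 8 sets).

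**Figure D3:**
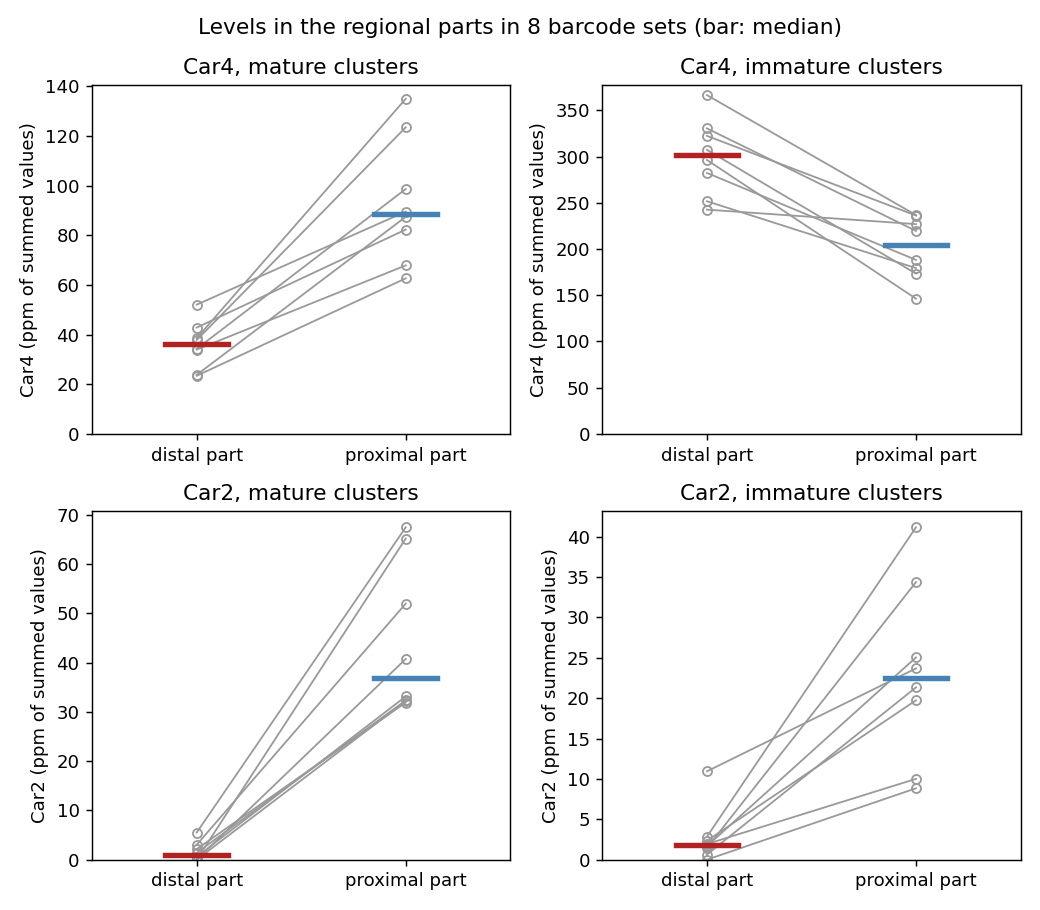
Level of Car4 (top) and Car2 (bottom) in ppm (y axes) in the distal and proximal part of mature (left) and immature clusters (right). Each joined pair of circles is 1 of 8 barcode sets and bars are medians. Car4 is lower in the distal part of mature clusters (median 36.03 against 88.5 ppm) and higher in that of immature clusters (302 against 204 ppm), whereas Car2 is lower in the distal part of both.

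Car2 was higher in the proximal part, most firmly in mature clusters. In mature clusters it was at 1.41 ppm in the distal and 40.2 ppm in the proximal part. The sets spanned 0 to 5.51 ppm (median 0.989 ppm) in the distal and 31.9 to 67.5 ppm (median 36.95 ppm) in the proximal part, with no overlap. The log2 difference was -4.09 (SD 0.997), negative in 8 of 8 sets, and was called, as were 15.6% of genes in that direction. It was -4.00 in the cells matched on detected genes, and -3.57 (called) over the late range of the maturity score. In 5 equal steps from proximal to distal, Car2 was at 50.1, 17.2, 7.51, 2.31 and 1.19 ppm. The mix of clusters changed as well. Cluster 9, with Car2 in 24.2% of cells, gave 81.05% of the proximal and 0.532% of the distal part. The other mature clusters had Car2 in 0.678% to 1.06% of cells. The part of this mix in the decline was not tested.

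In immature clusters Car2 was at 2.57 ppm in the distal and 24.1 ppm in the proximal part. The sets spanned 0 to 10.94 ppm (median 1.81 ppm) in the distal and 8.84 to 41.2 ppm (median 22.5 ppm) in the proximal part, and the ranges overlapped. The log2 difference of -2.81 (SD 0.98) was negative in 8 of 8 sets and was called, where 2.41% of genes were called in that direction. It was no longer called with the 8 proximal scoring genes alone (-0.19) or without the 15 cells of very high Car1 described below (-2.34, below the level asked for). The immature parts drew on different clusters: cluster 7 gave 90.7% of the distal part and cluster 6 gave 95.1% of the proximal part. Within cluster 6, Car2 was at 12.95 ppm in the distal and 18.5 ppm in the proximal part (-0.48, negative in 7 of 8 sets, not called). Within cluster 7, which held 13 of the 15 cells, it was at 1.97 and 36.9 ppm (-3.67, negative in 5 of 8 sets, not called). Between stages Car2 was at 18.4 ppm in mature and 13.8 ppm in immature clusters, a difference of 0.40 with 5 of 8 sets positive, which was not called. Without the same 15 cells that difference was 1.07 and was called. In cluster 9, 24.2% of cells had Car2 (43.3 ppm), and in cluster 6, 7.14% (14.2 ppm). Clusters 8, 12 and 13 (1.06%, 0.678% and 1.01%) were close to the 0.923% of tuft-like cells (3 of 325, interval 0.191 to 2.67). No expression is read from them. Goblet-like cells had Car2 in 6.08%, at 19.1 ppm, above the 14.2 ppm of cluster 6. Tuft-like cells were lower, at 3.63 ppm. Because these 2 comparisons differ, no expression is read from Car2 in cluster 6 either. Within cluster 9, Car2 was at 28.5 ppm in the distal and 63.9 ppm in the proximal part, negative in 8 of 8 sets (log2 difference -1.14).

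The highest Car2 level lay outside the intestinal lineage. The 165 Stomach-like cells had 1500 ppm of Car2, and 139 of them (84.2%, interval 77.8 to 89.4) had a value. Over the 4 sets with at least 20 such cells, the level spanned 1014 to 1802 ppm. In these cells Tff2, a gastric mucus peptide gene, was at 16735 ppm and Gkn1, a gastric surface cell gene, at 21825 ppm, while Atp4a, the acid pump gene of parietal cells, was listed at 0. Car4 was at 8.70 ppm there, and Car1 had a value in 0 of 165 cells; a count of 0 allows up to 3 cells, or 1.82%, with a value, which is no limit on cells that express the gene. Of the 106 cells with a Car2 value of 5 or more, 87 were Stomach-like, 10 had a high Car1 value, 6 were in cluster 9 and 3 were elsewhere. The small cluster 16 had Car2 in 8 of 17 cells, at 209 ppm.

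Car1 was concentrated in 15 cells. They had values of 50 to 237, whereas the highest values outside them were 21, 11 and 7, and they held 85.9% of all Car1 value. A threshold of 50, chosen after the values were seen, separates the groups. Car1 took 1.08% to 5.00% of the total of each of the 15. They came from 4 of the 8 sets, with 7 cells in set 8, 4 in set 7, 2 in set 6 and 2 in set 1, and none had a barcode shared between sets. Of these cells 13 were in cluster 7 and 2 in cluster 12. Without them, Car1 was at 1.89 ppm over all cells, at 3.75 ppm in cluster 7 (134 ppm with them) and at 1.81 ppm in cluster 12 (82.3 ppm with them). The other 207 cells with Car1 were 0.744% of cells, and 165 of them had a value of 1. They were not spread evenly, since 45 were in the unnamed cluster 0 (1.46% of it, interval 1.07 to 1.95), with values up to 11. That cluster was highest for the red blood cell list and had Hbb-bs among its leading genes, but also Agr2, Ghrl, Sst and Spink4. Its red blood cell markers summed to only 88.8 ppm, against 5708 ppm of goblet and 5945 ppm of immature enterocyte markers. Its cells with Car1 are therefore not read as red blood cells.

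No stage or regional difference of Car1 was called in any of the 6 comparisons made, although late minus middle was 1.21 and called when the maturity score used its crypt genes alone. Mature and immature clusters had 14.9 and 67.2 ppm with all cells, but 1.41 and 2.45 ppm without the 15. In mature clusters the distal and proximal parts had 21.9 and 1.26 ppm with all cells, but 1.18 and 1.26 ppm without them. In immature clusters the distal and proximal parts had 17.03 and 51.8 ppm with all cells, but 1.62 and 1.39 ppm without them. The middle part of immature clusters was highest, at 132 ppm with all cells and 4.32 ppm without them. It held 8 of the 15 cells, against 4 in the proximal and 1 in the distal part of these clusters. The Car1 differences between these groups were therefore mostly carried by where the 15 cells fell. Of the 15, the regional score was above 0 in 5, below 0 in 4 and exactly 0 in 6.

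The 15 cells differed from the other cells of cluster 7 in both other members. Car2 had a value in 12 of them, and it was 5 or more in 10, up to 16. Within cluster 7, 11 of the 13 had Car2 (84.6%, interval 54.6 to 98.1), against 1.33% of the other cells. Car4 had a value in 1 of the 13 in cluster 7 (7.69%, interval 0.195 to 36.03), against 74.4% of the other cells of that cluster. Both cells in cluster 12 had a Car4 value of 4, and of these 2 cells 1 had Car2, at 1. The 4 red blood cell genes of the marker list, Hba-a1, Hbb-bs, Hbb-bt and Alas2, had no value in any of the 15 (a count of 0 allows up to 3 cells, or 20%, with a value), and the stomach genes Gkn1, Gkn2, Tff1, Muc5ac and Atp4a also had none. Median detected genes were 2108.

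**Figure D4:**
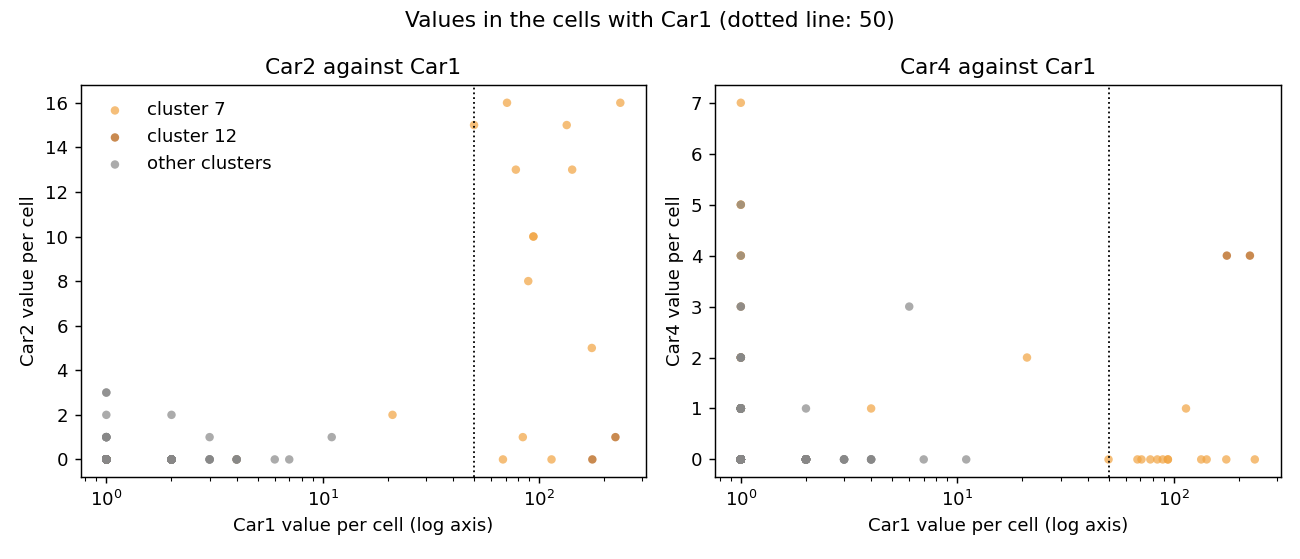
Car2 value (left) and Car4 value (right) against Car1 value (x axis, log scale) in the cells with Car1, coloured by cluster; points can lie on top of each other. Of the 15 cells right of the dotted line at 50, 12 have Car2, up to 16, and 3 have Car4.

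Beside the 1997 other cells of clusters 7 and 12 in the same 4 sets, the 15 cells differed in many genes. These genes were picked for their difference in these cells and are a description. The sulfotransferase gene Sult1a1 was at 1099 ppm in the 15 and 2.06 ppm in the others, the fatty acid hydroxylase gene Fa2h at 211 and 1.20 ppm, and Sycn, which encodes the secretory granule protein syncollin, at 380.5 and 2.31 ppm. Among lower genes, the fatty acid binding protein gene Fabp1 was at 14.1 and 1141 ppm, the sucrase-isomaltase gene Sis at 113 and 1589 ppm, and the peptidase gene Dpp4 at 42.3 and 573 ppm. The 9 immature enterocyte markers went both ways. Gsdmc2 and Gsdmc4 had values in 13 of 15 cells each (25.2% and 37.5% of the others) and higher levels. Lypd8 had a value in all 15, at 1691 ppm against 1836 ppm in the others. Reg3b (5 of 15, 97.9% of the others), Reg3g (4, 96.2%), Ccl25 (2, 87.7%), Il18 (2, 34.0%), Nlrp6 (7, 63.4%) and Ms4a18 (0, 41.1%) were at lower levels. No cell type name is given to these cells.

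How far the 3 enzymes excluded each other was counted as the cells with a value for both genes of a pair, against the number expected if they were independent within each set and regional part. Cells are not replicates, so no p is given. The interval of a ratio takes the observed number as a binomial share of the cells with the rarer gene. It holds the expected number fixed, so it covers counting error only and not the spread between sets. In immature clusters Car2 and Car4 were together in 73 cells, against 92.1 expected, a ratio of 0.79 (interval 0.65 to 0.93). In mature clusters they were together in 102 cells, against 116 expected (0.88, 0.74 to 1.04), and the ratio was 1.43 when cells were not divided by regional part and 1.12 when the parts came from the 8 distal scoring genes alone. In cluster 9, where both genes were frequent, 98 cells had both and 127 were expected (0.77, 0.64 to 0.91). The ratio in cluster 9 was 0.80 with 3 parts of the maturity score and 0.80 with 3 parts of detected genes added to the strata. In cluster 6, 53 cells had both and 67.8 were expected (0.78, 0.62 to 0.95). In cluster 7, 20 cells had both and 23.5 were expected (0.85, 0.59 to 1.09), an interval that includes 1. Cluster 7 held 13 cells of high Car1, of which 11 had Car2 and 1 had Car4. The 2 enzymes were thus found together less often than expected in clusters 6 and 9, and in immature clusters with these cells included, but far from exclusively.

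At higher values of Car4, Car2 was less frequent within clusters 9 and 6 but not over the mature clusters together. Unlike the ratios above, these shares were not divided by set, regional part or maturity. In cluster 9, Car2 was present in 5 of 48 cells with a Car4 value of 5 or more (10.4%), against 27.8% of the 1011 cells without Car4. In cluster 6 it was present in 4 of 112 such cells (3.57%), against 9.35% of the 802 cells without Car4. In cluster 7 it was present in 1 of 159 such cells (0.629%), against 3.08% of the 454 cells without Car4. Those 454 cells include cells of high Car1, most of which had Car2, so cluster 7 is not counted with clusters 9 and 6. Over all mature clusters it was present in 9.26% of 54 such cells, against 7.28% of the 4259 cells without Car4. With a value of at least 2 required of both genes, the ratio was 0.10 in mature and 0.14 in immature clusters. Of the 1109 cells with Car2, 810 had a value of 1, so these ratios rest on few cells. They have no interval and are not read as stronger exclusion. In cluster 9 the shares also ran opposite ways along both scores. From its most proximal to its most distal part, Car2 was present in 33.5%, 23.4% and 15.8% of cells, and Car4 in 27.2%, 37.7% and 41.1%. From its least to its most mature part, Car2 was present in 19.5%, 27.01% and 26.3% of cells, and Car4 in 45.9%, 38.1% and 21.8%. In cluster 6 the levels of the 2 genes also had opposite regional directions. The part of position and maturity in the shares at high Car4 was not tested, so they are not read as exclusion within cells.

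Car1 and Car4 were together in 12 mature cells, against 6.10 expected (1.97, 1.10 to 2.98; 1.24 without set 6), and in 21 immature cells, against 28.0 expected (0.75, 0.51 to 0.99). Without the 15 cells the immature ratio was 1.01. In cluster 7 Car4 was present in 17 of the 18 cells with a low Car1 value, against 1 of the 13 with a high value. In cluster 6, which held no cell of high Car1, 3 cells had both and 5.97 were expected (0.50, 0.11 to 1.15). Car1 and Car2 were together in 13 immature cells, against 2.02 expected (6.44, 3.66 to 9.82), and the ratio was 1.60 without the 15 cells.

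**Figure D5:**
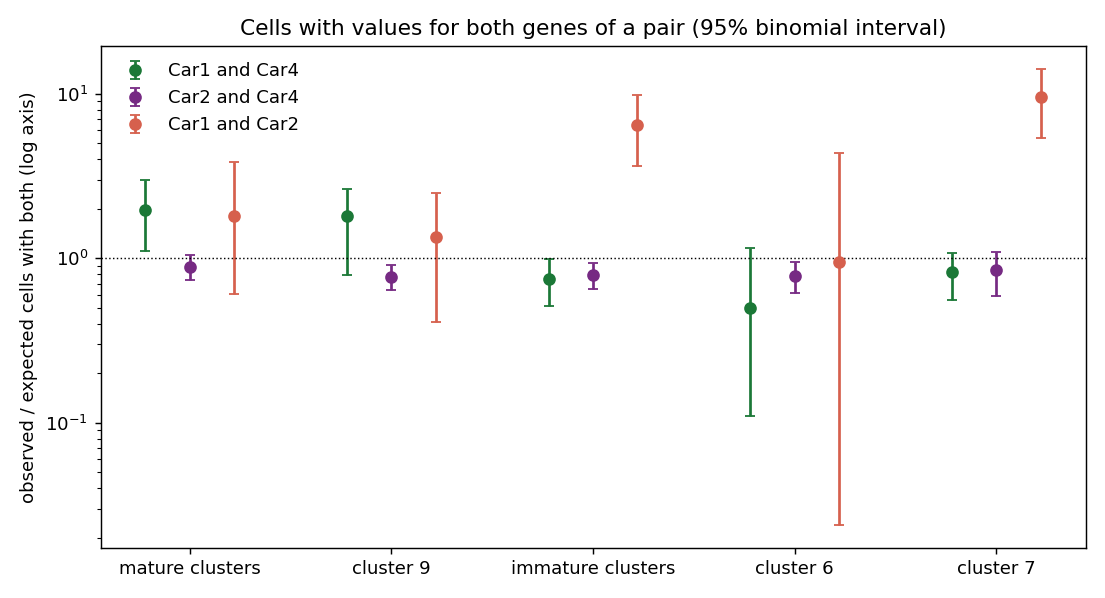
Observed over expected cells with values for both genes of each pair (y axis, log scale), with exact binomial 95% intervals, in mature clusters, cluster 9, immature clusters, cluster 6 and cluster 7. Car2 and Car4 lie under 1 throughout (0.77 to 0.88), with intervals that include 1 in mature clusters and cluster 7. Car1 and Car2 stand at 6.44 in immature clusters, with the 15 cells of high Car1 included.

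The genes most like each member over the 30 groups of maturity step and regional part, by Pearson r of log2 levels among 9417 genes, are given as a description. The groups share libraries and depth. For Car4 these were Gm3336 (0.95), Cyp4f40 (0.95), Ms4a18 (0.94), the tight junction gene Cldn3 (0.93), the unconventional myosin gene Myo7a (0.92) and Plpp5 (0.92). For Car2 they were the creatine kinase gene Ckb (0.91), the glutathione transferase gene Gstm6 (0.91), Pxmp4 (0.88), Nat8f1 (0.88), Slc37a4 (0.88), which encodes the glucose-6-phosphate transporter, and Gstt1 (0.88). For Car1 the highest r was 0.57 (Mob1b), so no gene tracked it closely.

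Of 13 other carbonic anhydrases looked for, 12 were in the table, and 4 of those, Car8, Car9, Car12 and Car13, were above 10 ppm over all cells. The other 8 were at or below 1.82 ppm. Car9, a membrane enzyme known as a hypoxia target, was at 19.3 ppm in mature and 68.2 ppm in immature clusters (log2 difference -1.77, called), the direction of Car4. In mature clusters Car9 was at 7.07 ppm in the distal and 36.1 ppm in the proximal part (-2.20, called). Car13, the cytosolic neighbour of Car1 on chromosome 3, was at 27.9 ppm in mature and 45.8 ppm in immature clusters (-0.70, not called). Car8, a family member without catalytic activity, and Car12, a membrane enzyme, were crypt genes here, at 83.9 and 61.5 ppm in crypt clusters and at 8.63 and 8.13 ppm in mature clusters.

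Genes of ion transport had regional patterns of both directions. None of these genes, nor the other carbonic anhydrases above, was compared in cells matched on detected genes. The part of detected genes in their differences was not tested. Of 10 bicarbonate and chloride transport genes that reached 10 ppm in the mature comparison, 3 were called higher and 3 lower in the distal part, with a list median of -0.09 and a median of -0.09 over all genes. Of all genes, 8.41% were called higher and 15.6% lower. Lower were the bicarbonate cotransporters Slc4a7 (24.8 ppm distal and 272 ppm proximal) and Slc4a5 (6.25 and 61.2 ppm). The other lower gene was the chloride-bicarbonate exchanger Slc26a3 (71.7 and 271 ppm). The higher genes were Slc26a2, Clca4a and Clca4b. Of 8 sodium and proton exchange genes, 2 were called higher and 1 lower, with a median of 0.35. The lower gene was Slc9a3, the apical sodium-proton exchanger (56.5 ppm distal and 226 ppm proximal), and the monocarboxylate carrier Slc5a8 was higher (225 and 24.3 ppm). Of 4 ion secretion and pumping genes, Slc12a2 and Kcnq1 were called higher, and none was called lower.

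In immature clusters 2.92% of all genes were called higher and 2.41% lower in the distal part, with a median of 0.02. Of 10 bicarbonate and chloride transport genes, 1 was called higher in the distal part (Slc26a2) and 2 lower (Slc4a5 and Slc4a7), with a median of 0.21. Of 8 sodium and proton exchange genes, Slc5a8 was called higher and Slc9a3 lower, with a median of 0.12. Of 6 ion secretion and pumping genes, Kcnq1 was called higher. Between stages, 3 of 10 bicarbonate and chloride transport genes (Clca4a, Clca4b and Slc4a7) and 4 of 8 sodium and proton exchange genes (Pdzk1, Slc9a3r1, Slc9a2 and Slc5a8) were called higher in mature clusters and none in either list lower, where 8.11% of all genes were called higher and 17.9% lower. Of 6 ion secretion and pumping genes, Slc12a2 was called higher and Kcnn4 and Kcne3 lower. The medians of these 3 lists, 0.17, 0.73 and -0.21, compare with -0.36 over all genes.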

How the data were processed

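Cell Ranger and mm10 are the tool and build listed in the submitters' processing notes. No version, cell filter or step that made the values is given. The authors' deposited table holds whole numbers, treated here as a score (a number with no fixed scale) and not as counts, because 25.3% of cells had more values of 2 than of 1. Depth is therefore unknown, and results are descriptions without a test. The members and lists were chosen with earlier results of these data known.

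Cells needed 500 detected genes and no more than 25% mitochondrial values (2 were removed). Scrublet (scanpy 1.11.5, run per set, expected rate 0.06) called 45 cells, 0.161%, and these were removed. A share below 0.5% may mean that the caller failed, so doublets may remain. Clustering used 2000 variable genes less the members, 30 principal components, 15 neighbours and leidenalg 0.10.2 at resolution 1, and gave 17 clusters. A name needed 3 or more markers that were 2-fold higher at 10 ppm, and a lead of 0.5 in median log2 fold over other lists. Other tools were numpy 2.4.6, pandas 2.3.3, scipy 1.17.1, scikit-learn 1.9.0 and Python 3.11.15.

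Scores were differences of mean log1p values per 10000. The cluster stages replaced the 3 planned ranges of the maturity score as the main division once the data had been seen. Cells were not thinned, since the values are not molecule counts, and were matched on detected genes instead. Named genes were the members, list genes at 10 ppm or more and the 6 genes most like each member. Genes of the cells of high Car1 were named after their values were seen. The rule was tested on simulated data.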

Additional observations from a re-analysis of the deposited data

Results flagged for a closer look

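Of 8 groups of stage, regional part and gene (Car2 and Car4), 1 had a barcode set that lay apart from the other 7. Car2 in the distal part of immature clusters was at 10.9 ppm in set 2, against 0 to 2.85 ppm in the other sets; chance marks about 1 in 20 groups in this way. The regional difference of Car4 had opposite directions in all 8 sets: it was -1.15 on the log2 scale in mature clusters and 0.58 in immature clusters (distal minus proximal). The difference between these was not tested, and in mature cells matched on detected genes the value was 0.11.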

How the results depend on the processing

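Of 315 alternative values for 33 results, 271 stayed within the spread between sets, the counting interval or 1.5 times a count; 42 moved further and 2 reversed, and for these the cause was not tested. All log2 differences are mature minus immature, late minus middle or distal minus proximal. No paired analysis was possible because the cells could not be mapped to the numbered samples; directions were counted within each barcode set instead. Only differences that met the rule, and ratios whose interval left out 1, were counted as reversed; with the others included, 18 log2 differences changed sign and 6 ratios crossed 1, besides 2 log2 differences when 1 set was left out. The 2 reversals were Car4 in the mature regional comparison when matched on detected genes (0.11) and the immature Car1 and Car4 ratio without the 15 cells of high Car1 (1.01). Matching also gave Car4 0.52 in the middle and -0.18 in the late range, and Car1 -0.35 in the mature regional and -5.22 in the stage comparison. Without the 15 cells, Car1 was -0.051 in the mature regional comparison, and the immature Car1 and Car2 ratio was 1.60. A pseudocount of 10 ppm gave regional Car2 -1.94 in the late range, -1.44 in immature and -2.14 in mature clusters, and took Car4 in mature clusters just under the size rule (-0.99). The proximal scoring genes alone gave regional Car4 -1.82 in the middle range, 0.16 in the late range and 0.055 in immature clusters, Car2 -0.19 and Car1 5.51 in immature clusters. The distal scoring genes alone gave regional Car4 2.07 in the middle range and 0.91 in immature clusters, Car2 -2.63 in mature clusters, and a mature Car2 and Car4 ratio of 1.12. With clusters 9 and 7 as late and middle ranges, the values for late were -1.14 (Car2) and 1.07 (Car4), for middle -7.08 (Car1) and -3.67 (Car2), and between them -6.12 (Car1) and -1.58 (Car4). With the crypt scoring genes alone, late minus middle was called for Car1 (1.21), Car2 (1.81) and Car4 (1.48). Regional Car4 in the late range was called without rescaling (-1.26), with cluster 3 (-1.21) and without set 4 (-1.03), and Car2 for late minus middle without set 8 (1.69). Adding cluster 3 gave Car1 -3.84 in the middle range. The stricter cell filter gave Car1 -1.86 for late minus middle and -0.017 in the mature regional comparison, and the median over sets gave 0.85 there. Leaving out each set in turn gave 0.093 (without set 6) to 3.62 for that Car1 value, -1.27 to -1.09 for Car4 and -4.36 to -3.91 for Car2 in the same comparison.

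With a value of at least 2 required, the ratio of Car2 and Car4 was 0.057 in the late range, 0.14 in immature and 0.10 in mature clusters, that of Car1 and Car4 0.15 in immature and 5.53 in mature clusters, and that of Car1 and Car2 10.9 in the late range, 35.9 in immature and 0 in mature clusters. Few cells had such values of Car1 or Car2, and these ratios have no interval. Without regional strata the Car2 and Car4 ratio was 0.90 in the late range and 1.43 in mature clusters. Without the filter on low values 195 genes were called in the middle range (125 with it) and 5381 for late minus middle (3491 with it), and a pseudocount of 10 ppm called 1228 for mature minus immature (2182 at 1 ppm). Without rescaling, Car4 was -1.63 in the mature regional comparison, the median of all genes there moved to -0.58 (-0.09 with it), and 9.64% of calls were higher in the distal part (35.1% with it); in the late range the median was -0.48 and 16.3% were higher (-0.12 and 38.4% with it). Depth is unknown, so low shares of Car1 and Car2 limit what could be seen in single clusters.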
